A study of Homo sapiens with 6 samples.

Results

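The genes described here encode enzymes that write and erase chromatin marks, together with bromodomain genes that carry the BRD symbol. The members were the protein-coding genes whose symbol starts with KDM, KMT, HDAC, SIRT, SETD, PRMT, DNMT, TET, BRD or EZH followed by a digit, which gave 80 of the 58302 genes in the table. RNA was sequenced from MDA-MB-231-DR cells, which derive from the human triple-negative MDA-MB-231 breast cancer line and resist doxorubicin. The libraries were 3 of control cells and 3 of cells treated with cyperotundone (CYT), a natural sesquiterpenoid. Per the study's methods the resistant line was kept in medium with low-dose doxorubicin, which applies to both groups. The CYT dose, the treatment time and the vehicle of these libraries are not given in the sources used here. The study's statistics section describes its data in general as averages of independent experiments, without naming the sequencing, and the labels do not say whether the replicates were separate cultures. The p-values therefore measure the spread between these libraries.

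Lysine methyltransferases and demethylases add and remove methyl groups on histone tails, and the effect on transcription depends on the residue. Histone deacetylases and sirtuins remove acetyl groups, and the acetylated lysines are bound by bromodomains. DNA methyltransferases methylate cytosine, mainly at CpG sites, and TET enzymes oxidize that mark. Several of these enzymes, such as EZH2, HDAC1 and KDM5B, are studied as drug targets or resistance factors in breast cancer.

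Library totals over all genes were 17357053, 17770102 and 14050849 for control replicates 1, 2 and 3, and 14106017, 13056270 and 13423683 in CYT replicates 1, 2 and 3. Levels are given in CPM, the counts scaled to library size with TMM factors, and fold changes are log2 of CYT against control. The members took 0.422% ± 0.0290 (SD, n = 3) of the counts in control and 0.430% ± 0.0104 (SD, n = 3) in CYT libraries, so their summed share differed by less than the spread between replicates. Of the 80 members, 74 passed the filter on low counts. TET1 had 2 to 26 counts per library, and the other 5 (DNMT3L, KDM4E, KDM4F, KDM5D and PRMT8) had at most 5 counts in any library and were not tested.

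CYT replicate 2 stood apart from the other CYT libraries. Its log2 CPM correlated with CYT replicates 1 and 3 at 0.905 and 0.904 across the 15572 genes tested, against 0.970 between replicates 1 and 3. All 19 tested members with a transcript GC content under 45% were higher in CYT replicate 2 than in the mean of CYT replicates 1 and 3, and all 11 above 60% were lower. Across the 74 members, the rank correlation of this deviation with GC content was -0.868, as a description over genes that share these libraries. The same correlation for the log2 fold change was -0.301, and it was 0.0054 when CYT replicate 2 was left out. Leaving it out moved several uncalled members closer to 0 in log2 fold change: SIRT1 from 0.91 to 0.45, KDM6A from 0.83 to 0.48, TET2 from 0.73 to 0.35, HDAC2 from 0.62 to 0.18, EZH2 from 0.53 to 0.33, HDAC5 from -0.79 to -0.45, HDAC10 from -0.66 to -0.28, HDAC11 from -0.65 to -0.31 and SETD1A from -0.55 to -0.18. Other uncalled members moved away from 0, such as HDAC9 from -0.21 to -0.997, PRMT9 from -0.18 to -0.83 and SETD2 from -0.70 to -1.11. So did KDM1B from -0.11 to -0.42, SIRT6 from 0.25 to 0.57 and SIRT7 from 0.72 to 0.97, and PRMT3 turned from 0.34 to -0.40. Control replicate 2 leaned the same way by less: over all genes tested, the rank correlation of a library's deviation from the mean of the 6 libraries with GC content was -0.261 there and -0.548 in CYT replicate 2, against 0.183 to 0.333 in the other 4. The part of GC content in each fold change was not tested beyond the fits with a GC term given below.

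**Figure D1:**
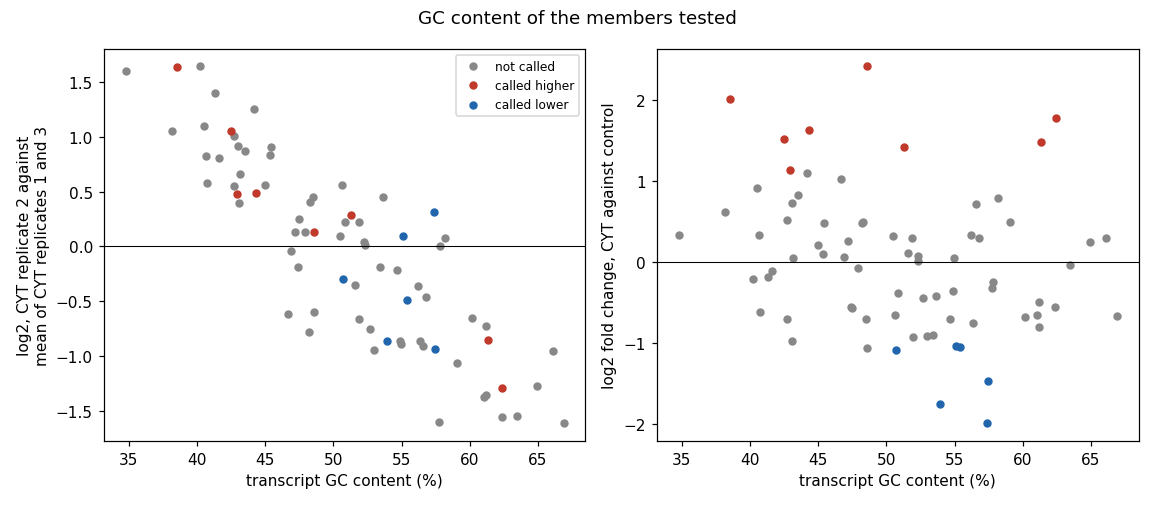
Transcript GC content (x axis, percent) of the 74 members tested against the log2 ratio of CYT replicate 2 to the mean of CYT replicates 1 and 3 (left) and against the log2 fold change of CYT against control (right). Each point is 1 member, coloured by its call, and the left panel falls from above 0 at low GC content to below 0 at high GC content.

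A gene was called when its adjusted p was under 0.05 and its absolute log2 fold change over 1. By this rule 8 members were called higher and 6 lower after CYT, which is 10.8% and 8.11% of the 74 tested. Over all 15572 genes, 15.2% were called higher and 12.2% lower. Among the 12755 protein-coding genes tested, the shares were 11.9% and 13.8%. The members' shares lie near or under these, so the number of calls is not a result about the members. With upper-quartile normalization the counts were 10 higher and 3 lower, against 2756 and 1531 of all 15572 genes. With protein-coding genes alone they were 8 and 3, against 1630 and 1514 of 12753 genes. Leaving out a library gave 4 higher and 1 lower without control replicate 1, 2 and 3 without control replicate 3, 5 and 5 without CYT replicate 1, and 5 and 3 without CYT replicate 3. Over all 15572 genes these fits called 1669 and 1167, 1563 and 1168, 1898 and 1344, and 1815 and 1266, in that order. The members' median log2 fold change was 0.039, against 0.0064 over all genes tested. What follows is therefore an account of which enzymes changed.

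Lysine demethylases made up 8 of the 14 called members. Of 17 tested, 6 were called higher and 2 lower, and the remaining 57 members held 2 called higher and 4 called lower. Whether demethylases differ from the other members was not tested. For each of the 14 called members the groups did not overlap. Among all members 14 were higher without overlap and 18 lower without overlap, or 18.9% and 24.3%, against 23.4% and 22.7% of all genes tested.

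**Figure D2:**
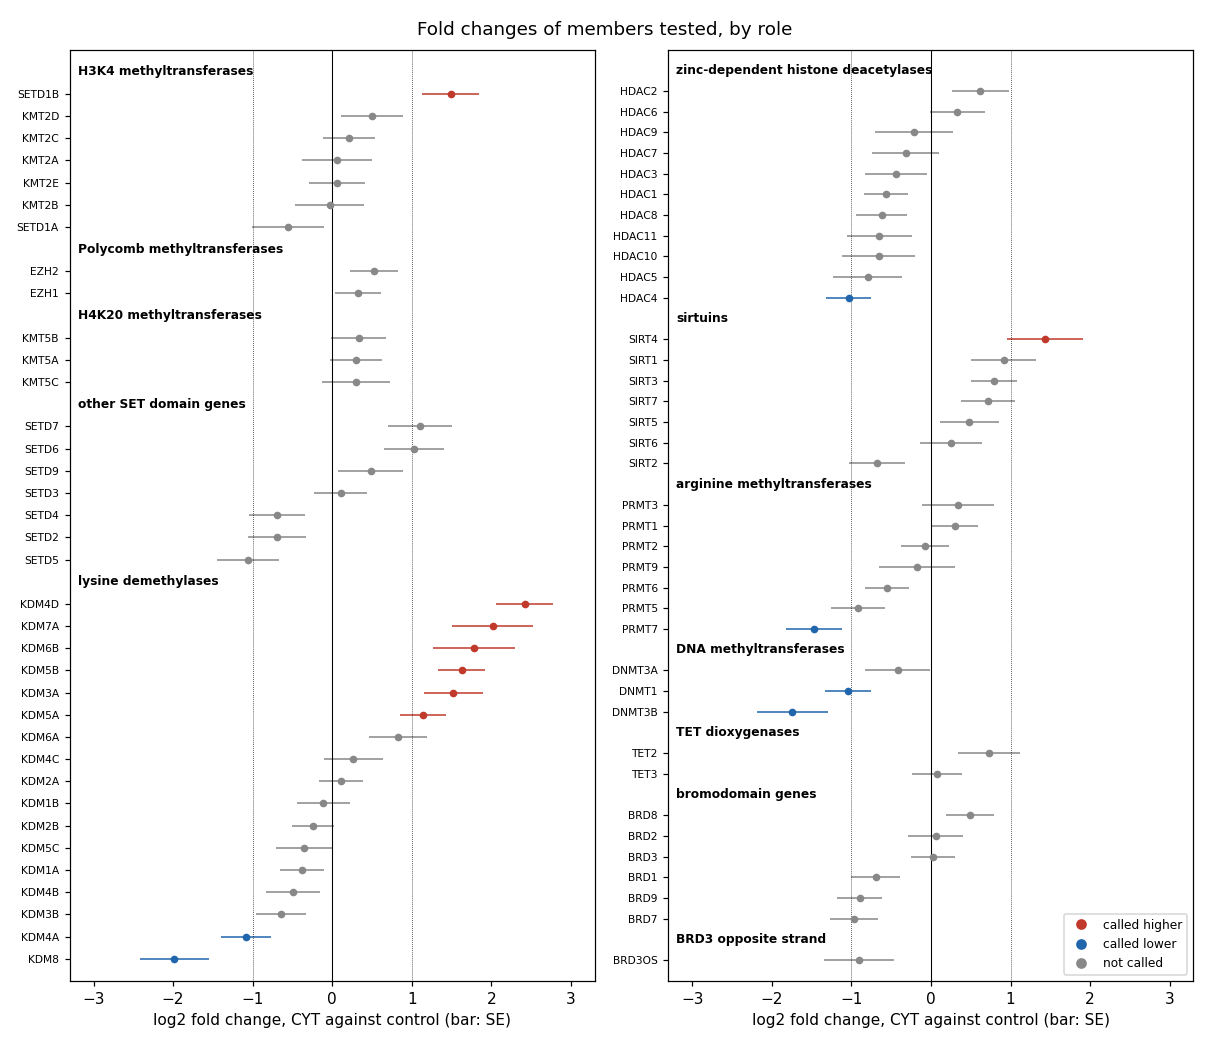
Log2 fold change of CYT against control (x axis) for members tested, grouped by role, with bars for the SE (n = 3 per group). Coloured points are the 8 members called higher and the 6 called lower, and dotted lines mark log2 values of 1 and -1. Of the 74 tested, 1 uncalled member is not shown.

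The KDM5 enzymes remove methyl groups from H3K4, a mark of active promoters. KDM5B (ENSG00000117139, chr1:202724491-202809470) was at 48.4, 41.5 and 37.5 CPM in control replicates 1, 2 and 3 and at 113, 162 and 118 CPM in CYT replicates 1, 2 and 3. Every CYT library was above every control library. The log2 fold change was 1.63 ± 0.30 (SE, n = 3 per group; edgeR quasi-likelihood test, Benjamini-Hochberg adjusted p = 0.00383), and the call held in all 19 alternative analyses. KDM5A (ENSG00000073614, chr12:280129-389454) was at 33.7, 39.8 and 37.2 CPM in control replicates 1, 2 and 3 and at 79.5, 100.3 and 64.7 CPM in CYT replicates 1, 2 and 3. Its groups were also fully apart, and CYT replicate 2 was the highest. This gave a log2 fold change of 1.14 ± 0.29 (SE, n = 3 per group; edgeR quasi-likelihood test, Benjamini-Hochberg adjusted p = 0.0178). Without control replicate 1, control replicate 3 or CYT replicate 1 the edgeR adjusted p was 0.0730, 0.0747 and 0.0514, and without CYT replicate 2 the log2 fold change was 0.97, so each of these ended the call. KDM5A shares 182 exon bases with CCDC77 on the opposite strand. The third tested paralogue, KDM5C, was not called, with a log2 fold change of -0.36 and overlapping groups.

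The KDM4 family acts on H3K9, with H3K36 a substrate of only some members, and its members were called in opposite directions. KDM4D (ENSG00000186280, chr11:94973681-94999518) was at 1.98, 2.29 and 1.87 CPM in control replicates 1, 2 and 3 and at 8.53, 11.7 and 12.8 CPM in CYT replicates 1, 2 and 3. These were 26 to 43 counts in control and 121 to 164 counts in CYT libraries. The low level of control was similar in its 3 libraries. Its log2 fold change was 2.42 ± 0.36 (SE, n = 3 per group; edgeR quasi-likelihood test, Benjamini-Hochberg adjusted p = 0.00173), the largest rise among the members, and it was called without each library in turn. KDM4A (ENSG00000066135, chr1:43650158-43705515) was at 69.1, 53.2 and 45.01 CPM in control replicates 1, 2 and 3 and at 32.7, 22.8 and 23.4 CPM in CYT replicates 1, 2 and 3. All CYT libraries were under all control libraries. CYT against control gave a log2 fold change of -1.08 ± 0.31 (SE, n = 3 per group; edgeR quasi-likelihood test, Benjamini-Hochberg adjusted p = 0.0282). This call was close to the criteria, and it was lost without control replicate 1, control replicate 2, control replicate 3 or CYT replicate 3 (edgeR adjusted p from 0.0556 to 0.115) and without CYT replicate 2, where the log2 fold change was -0.98. It was also lost with upper-quartile normalization, a mean of at least 5 CPM and protein-coding genes alone. KDM4A shares 2077 exon bases with AL451062.3 on its own strand and 464 with KDM4A-AS1 on the other, so its counts are uncertain. KDM4B and KDM4C were not called, at -0.49 and 0.27.

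KDM3A and KDM7A remove methyl groups from H3K9, and KDM7A also from H3K27. KDM3A (ENSG00000115548, chr2:86440647-86492716) was at 18.3, 20.4 and 21.6 CPM in control replicates 1, 2 and 3 and at 48.7, 88.4 and 36.2 CPM in CYT replicates 1, 2 and 3. The groups were apart, with a wide spread in CYT. In the test, the log2 fold change was 1.52 ± 0.37 (SE, n = 3 per group; edgeR quasi-likelihood test, Benjamini-Hochberg adjusted p = 0.0143). Leaving out control replicate 1 or control replicate 3 ended the call (edgeR adjusted p = 0.0604 and 0.0532). KDM7A (ENSG00000006459, chr7:140084746-140177035) was at 4.77, 5.43 and 4.10 CPM in control replicates 1, 2 and 3 and at 13.3, 35.4 and 9.30 CPM in CYT replicates 1, 2 and 3. CYT replicate 2 was far above the other CYT libraries, and all 3 exceeded control. The log2 fold change was 2.02 ± 0.50 (SE, n = 3 per group; edgeR quasi-likelihood test, Benjamini-Hochberg adjusted p = 0.0157), and it was 1.25 without CYT replicate 2, where the call was kept. It was lost without control replicate 1 or control replicate 3 (edgeR adjusted p = 0.0570 and 0.0669). KDM3B, the closest paralogue of KDM3A, was not called, at -0.64.

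KDM6B and KDM6A are H3K27 demethylases that oppose Polycomb. KDM6B (ENSG00000132510, chr17:7839904-7854796) was at 22.01, 6.66 and 10.1 CPM in control replicates 1, 2 and 3 and at 57.4, 22.6 and 53.4 CPM in CYT replicates 1, 2 and 3. Control replicate 1 and CYT replicate 2 were almost equal, so the groups touched without overlapping. This gave a log2 fold change of 1.78 ± 0.51 (SE, n = 3 per group; edgeR quasi-likelihood test, Benjamini-Hochberg adjusted p = 0.0279). Leaving out control replicate 2, control replicate 3, CYT replicate 1 or CYT replicate 3 ended the call, with an edgeR adjusted p from 0.0674 to 0.107. KDM6A was not called, at 0.83. KDM8 (ENSG00000155666, chr16:27203495-27221768), a JmjC protein whose activity is less settled than that of the others, was at 7.56, 4.47 and 7.05 CPM in control replicates 1, 2 and 3 and at 1.90, 1.85 and 1.03 CPM in CYT replicates 1, 2 and 3. These were 84 to 122 counts in control and 13 to 27 in CYT libraries, with no overlap. Its log2 fold change was -1.98 ± 0.43 (SE, n = 3 per group; edgeR quasi-likelihood test, Benjamini-Hochberg adjusted p = 0.00848), the largest fall among the members, and the call held without each library in turn. KDM8 shares 585 exon bases with AC109449.1 on the opposite strand, which had at most 12 counts.

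**Figure D3:**
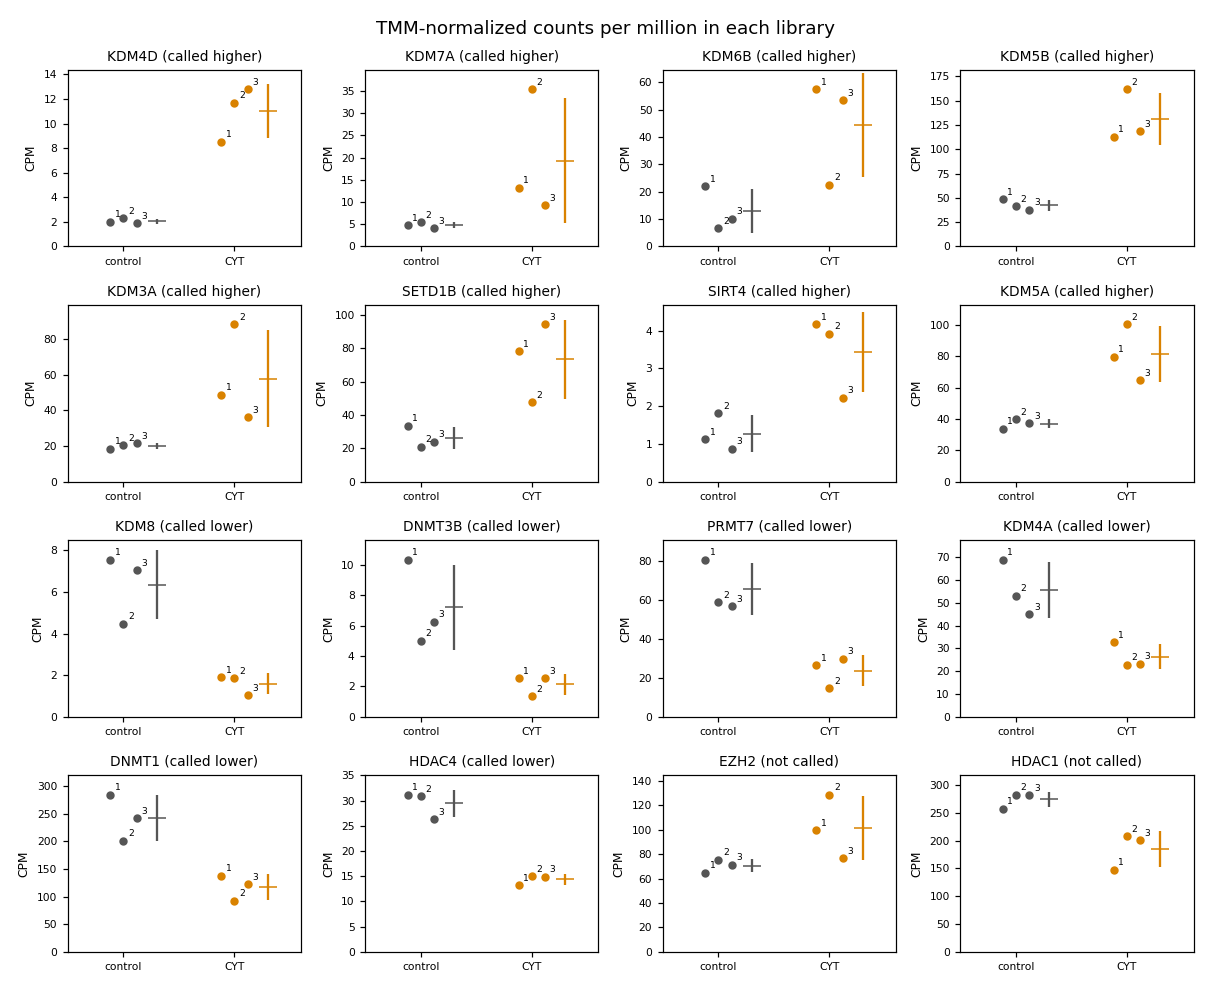
CPM of the 14 called members, EZH2 and HDAC1 in each library (y axis, starting at 0), with the replicate number beside each point and the mean with its SD (n = 3) to the right. The groups are apart in each panel, and CYT replicate 2 is the highest CYT library in KDM7A, KDM3A, KDM5B, KDM5A, HDAC4, EZH2 and HDAC1 and the lowest in KDM6B, SETD1B, KDM4A, DNMT1, DNMT3B and PRMT7.

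The other demethylases tested were not called. KDM1A, which acts on mono- and dimethylated H3K4, had a log2 fold change of -0.38, and its paralogue KDM1B had -0.11. KDM2A and KDM2B, which act on H3K36, were at 0.11 and -0.24.

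For 3 called members, 1 upstream window is shown. It was chosen because it carries one of the boxes searched and no annotated exon, so that sequence and call can be read together. They are the 250 bases before a RefSeq transcription start (GRCh38.p14), with GC boxes (GGGCGG, or CCGCCC on the other strand) and CCAAT boxes (CCAAT, or ATTGG on the other strand) in capitals. The KDM6B window (chr17:7833967-7834216, plus strand) lies 5688 bases before the deposited locus, and the KDM4A window (chr1:43649899-43650148, plus strand) ends 10 bases before it. The DNMT3B window (chr20:32779602-32779851, plus strand) lies inside the deposited locus, downstream of its start. It therefore precedes an internal start and does not describe the sequence before the deposited gene start.
KDM6B: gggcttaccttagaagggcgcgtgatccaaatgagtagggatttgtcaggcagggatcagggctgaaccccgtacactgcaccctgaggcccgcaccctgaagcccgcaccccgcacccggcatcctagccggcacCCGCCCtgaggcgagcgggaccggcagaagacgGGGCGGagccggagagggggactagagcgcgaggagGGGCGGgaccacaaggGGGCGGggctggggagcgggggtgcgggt
KDM4A: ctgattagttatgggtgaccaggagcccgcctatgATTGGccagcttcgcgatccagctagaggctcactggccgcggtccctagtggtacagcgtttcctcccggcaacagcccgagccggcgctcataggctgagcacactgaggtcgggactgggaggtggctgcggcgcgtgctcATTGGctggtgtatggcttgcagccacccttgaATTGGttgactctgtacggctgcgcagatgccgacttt
DNMT3B: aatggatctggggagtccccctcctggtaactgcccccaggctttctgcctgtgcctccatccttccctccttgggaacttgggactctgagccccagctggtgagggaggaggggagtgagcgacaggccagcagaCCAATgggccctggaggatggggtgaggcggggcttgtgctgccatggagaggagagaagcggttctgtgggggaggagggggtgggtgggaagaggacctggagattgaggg
KDM6B, called higher, holds 4 GC boxes and 21 CpG sites in this window and no CCAAT box. The other KDM6B window (chr17:7839667-7839916), which reaches into the deposited locus, holds 0 GC boxes and 1 CpG site. KDM4A, called lower, holds 3 CCAAT boxes and 17 CpG sites and no GC box, and DNMT3B, also called lower, holds 1 CCAAT box and 3 CpG sites. RefSeq gave 117 windows for 74 of the 80 members. A GC box was found in 65% of these windows and in 42.6% of all 35116 windows of this length, and a CCAAT box in 27.4% and 32%. SETD1B has no window. Of the other 7 members called higher, KDM3A, KDM4D, KDM5A, KDM5B, KDM6B and KDM7A had a GC box in at least 1 window, as did HDAC4, KDM8 and PRMT7 among the 6 called lower. A CCAAT box was found in KDM3A and KDM4D among those called higher and in DNMT3B and KDM4A among those called lower. A match describes these letters and no binding site.

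Among the H3K4 methyltransferases, SETD1B (ENSG00000139718, chr12:121804180-121832584), a catalytic subunit of the COMPASS complexes, was the called member. It was at 33.6, 20.9 and 24.0 CPM in control replicates 1, 2 and 3 and at 78.1, 47.5 and 94.4 CPM in CYT replicates 1, 2 and 3. CYT replicate 2 was the lowest of its group and still above control. CYT against control gave a log2 fold change of 1.49 ± 0.35 (SE, n = 3 per group; edgeR quasi-likelihood test, Benjamini-Hochberg adjusted p = 0.0128). Without control replicate 3 or CYT replicate 3 the call was lost at an edgeR adjusted p of 0.0622 and 0.0509. Its paralogue SETD1A was not called and had the opposite sign (-0.55). The KMT2 genes were not called: the log2 fold changes were KMT2A 0.060, KMT2B -0.032, KMT2C 0.21, KMT2D 0.50 and KMT2E 0.057, and each had overlapping groups.

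EZH2, the H3K27 methyltransferase of Polycomb repressive complex 2, was not called. EZH2 (ENSG00000106462, chr7:148807383-148884321) was at 64.8, 75.4 and 71.5 CPM in control replicates 1, 2 and 3 and at 99.5, 129 and 76.7 CPM in CYT replicates 1, 2 and 3. The groups did not overlap, but the lowest CYT library was close to the highest control library. In the test, the log2 fold change was 0.53 ± 0.30 (SE, n = 3 per group; edgeR quasi-likelihood test, Benjamini-Hochberg adjusted p = 0.213). EZH1 was at 0.33. The H4K20 methyltransferases KMT5A, KMT5B and KMT5C had log2 fold changes of 0.30, 0.33 and 0.30, none of them called by edgeR, DESeq2 or limma and 0 with an unadjusted edgeR p under 0.05.

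The 7 other SET domain genes had no member called by edgeR, although 3 had a fold beyond the criterion and an unadjusted p under 0.05. DESeq2 called 2 of the 7 and limma 0. The log2 fold changes were 1.11 for SETD7, a methyltransferase of H3K4 and of non-histone proteins, 1.03 for SETD6 and -1.06 for SETD5. Their adjusted p-values from the edgeR quasi-likelihood test (Benjamini-Hochberg) were 0.0659, 0.0665 and 0.0689. Without CYT replicate 2, SETD7 was at 0.56 (edgeR adjusted p = 0.123). SETD2, which trimethylates H3K36, was at -0.70, and it was called lower without CYT replicate 2 (-1.11). SETD3, SETD4 and SETD9 were at 0.11, -0.69 and 0.48. With the replicate number as a block, SETD5 was called lower at -1.08 (edgeR adjusted p = 0.0242). With the GC and length term, SETD5, SETD6 and SETD7 were all called, at -1.01, 1.03 and 1.06. SETD6 shares 1086 exon bases with CNOT1 on the opposite strand.

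Of the 11 zinc-dependent histone deacetylases, 1 was called lower and none higher, and 9 had a negative log2 fold change, under each other scaling too (8 without CYT replicate 1, 2 or 3). HDAC4 (ENSG00000068024, chr2:239048168-239401654), a class IIa deacetylase, was at 31.2, 30.8 and 26.3 CPM in control replicates 1, 2 and 3 and at 13.2, 15.0 and 14.9 CPM in CYT replicates 1, 2 and 3. Both groups were tight and apart. The log2 fold change was -1.04 ± 0.28 (SE, n = 3 per group; edgeR quasi-likelihood test, Benjamini-Hochberg adjusted p = 0.0234). The call was kept without CYT replicate 2 and lost without control replicate 1, control replicate 2, control replicate 3, CYT replicate 1 or CYT replicate 3 (edgeR adjusted p from 0.0614 to 0.0896). With a GC and length term added after the data were seen, the log2 fold change was -0.80, under the criterion. Upper-quartile normalization, the 5 CPM filter, protein-coding genes alone, a gene length term and limma ended this call as well.

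HDAC1 (ENSG00000116478, chr1:32292086-32333635), the class I enzyme of several corepressor complexes, was second to PRMT1 among the members in control libraries per length. It was at 258, 283 and 282 CPM in control replicates 1, 2 and 3 and at 148, 208 and 201 CPM in CYT replicates 1, 2 and 3. All CYT libraries were under all control libraries. This gave a log2 fold change of -0.56 ± 0.27 (SE, n = 3 per group; edgeR quasi-likelihood test, Benjamini-Hochberg adjusted p = 0.148), which was not called. HDAC2, its partner in the same complexes, was at 0.62 and not called. The remaining deacetylases were not called, and their log2 fold changes were HDAC3 -0.44, HDAC5 -0.79, HDAC6 0.33, HDAC7 -0.32, HDAC8 -0.62, HDAC9 -0.21, HDAC10 -0.66 and HDAC11 -0.65. HDAC10 shares 2763 exon bases on its own strand with MAPK12, which had up to 1006 counts. HDAC8 shares 1193 with AL133500.1, also on its own strand, so the counts of HDAC8 and HDAC10 are uncertain.

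Sirtuins use NAD as a cofactor. SIRT4 (ENSG00000089163, chr12:120302316-120313249), a mitochondrial sirtuin, was at 1.12, 1.81 and 0.863 CPM in control replicates 1, 2 and 3 and at 4.16, 3.91 and 2.22 CPM in CYT replicates 1, 2 and 3. These were 12 to 34 counts in control and 28 to 59 in CYT libraries, so the depth behind this value is small. Its log2 fold change was 1.43 ± 0.48 (SE, n = 3 per group; edgeR quasi-likelihood test, Benjamini-Hochberg adjusted p = 0.0493). The call was at the limit of the criterion and was kept without control replicate 2, where the edgeR adjusted p was 0.0411. It was lost without each of the other 5 libraries, with an edgeR adjusted p from 0.0565 (CYT replicate 3) to 0.164 (control replicate 3). DESeq2, no filter and the gene length and GC terms ended it too, and with the GC term the log2 fold change was 0.83. The other sirtuins were not called, at log2 fold changes of SIRT1 0.91, SIRT2 -0.68, SIRT3 0.79, SIRT5 0.48, SIRT6 0.25 and SIRT7 0.72. With the GC and length term SIRT3 was called higher, at 1.10. SIRT3 shares 316 exon bases with the more abundant PSMD13 on the opposite strand.

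The protein arginine methyltransferases had 1 called member. PRMT7 (ENSG00000132600, chr16:68310974-68358563), which makes monomethylarginine, was at 80.5, 58.6 and 56.5 CPM in control replicates 1, 2 and 3 and at 26.2, 14.6 and 29.8 CPM in CYT replicates 1, 2 and 3. The groups were well apart. CYT against control gave a log2 fold change of -1.47 ± 0.35 (SE, n = 3 per group; edgeR quasi-likelihood test, Benjamini-Hochberg adjusted p = 0.0130), and 18 of the 19 alternatives kept the call. Without control replicate 1 it was lost (edgeR adjusted p = 0.0553). PRMT1, the main enzyme of asymmetric dimethylation, had the highest level of the members per length, with a mean of 98.2 ± 21.1 (SD, n = 3) TMM-scaled RPKM in control and 121 ± 26.4 (SD, n = 3) in CYT libraries. HDAC1 followed with 42.7 ± 2.20 (SD, n = 3) in control. PRMT1 had a log2 fold change of 0.30 and overlapping groups. PRMT5, the main enzyme of symmetric dimethylation, was at -0.92 and was not called, except without control replicate 2 (-1.11). PRMT2, PRMT3, PRMT6 and PRMT9 were at -0.076, 0.34, -0.55 and -0.18. PRMT6 was called lower in 4 alternatives, at -1.03 with the gene length term (edgeR adjusted p = 0.0241), at -1.18 with the GC and length term (edgeR adjusted p = 0.00142), and with each of these terms and the replicate block.

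Of the 3 DNA methyltransferases tested, 2 were called lower. DNMT1 (ENSG00000130816, chr19:10133345-10231286), which maintains methylation after replication, was at 285, 201 and 242 CPM in control replicates 1, 2 and 3 and at 138, 92.5 and 122 CPM in CYT replicates 1, 2 and 3. All CYT libraries were under all control libraries. In the test, the log2 fold change was -1.04 ± 0.29 (SE, n = 3 per group; edgeR quasi-likelihood test, Benjamini-Hochberg adjusted p = 0.0255). The call was kept without control replicate 2 (edgeR adjusted p = 0.0387). It was lost without control replicate 1, control replicate 3, CYT replicate 1 or CYT replicate 3 (edgeR adjusted p from 0.0541 to 0.0936) and without CYT replicate 2, where the log2 fold change was -0.89. With the GC and length term the edgeR adjusted p was 0.00308 and the log2 fold change -0.84, under the criterion for the fold. A gene length term, upper-quartile normalization, the 5 CPM filter and protein-coding genes alone also brought the fold under it. DNMT3B (ENSG00000088305, chr20:32762385-32809356), a de novo enzyme, was at 10.4, 5.005 and 6.25 CPM in control replicates 1, 2 and 3 and at 2.54, 1.35 and 2.54 CPM in CYT replicates 1, 2 and 3. These were 87 to 167 counts in control and 19 to 36 in CYT libraries. The log2 fold change was -1.75 ± 0.45 (SE, n = 3 per group; edgeR quasi-likelihood test, Benjamini-Hochberg adjusted p = 0.0174), and leaving out control replicate 1 ended the call (edgeR adjusted p = 0.0778). DNMT3A was not called, at -0.42. TET2 and TET3, which oxidize methylated cytosine, were not called by edgeR, DESeq2 or limma, at 0.73 and 0.077, and 0 had an unadjusted edgeR p under 0.05.

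None of 6 bromodomain genes was called by edgeR, DESeq2 or limma, and 3 had an unadjusted edgeR p under 0.05. By adjusted p alone, without the criterion on the fold, 8 members were higher and 8 lower, against 15.7% and 12.9% of all genes tested. BRD7 and BRD9, subunits of SWI/SNF-type remodelling complexes, are the pair that this adds, with log2 fold changes of -0.97 and -0.89, and their adjusted p-values from the edgeR quasi-likelihood test (Benjamini-Hochberg) were 0.0389 and 0.0405. With the replicate block this rule gave 11 higher and 13 lower of the 74 members tested, and 6209 of all 15572 genes. BRD7 was at 43.2, 41.8 and 45.2 CPM in control replicates 1, 2 and 3 and at 24.1, 26.4 and 16.0 CPM in CYT replicates 1, 2 and 3, with no overlap, and it was called lower without CYT replicate 2, without a filter and with the GC and length term (-1.02, and with that term and the block). BRD7 shares 3593 exon bases with ADCY7 on the opposite strand, so its counts are uncertain. Of the others, BRD1, BRD2, BRD3 and BRD8 were at -0.70, 0.059, 0.022 and 0.49. BRD3OS, which matches the rule by its symbol alone and shares 1281 exon bases with BRD3 on the opposite strand, was at -0.90 and was not called.

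Related genes of the same machinery were counted in 9 lists, in which 120 of 123 genes were tested. There were 6 called higher and 19 lower, or 5% and 15.8%, with a median log2 fold change of -0.31. The share called lower lies near the 13.8% of protein-coding genes and 12.2% of all genes, and the share called higher is below the 11.9% and 15.2%. Whether these shares differ was not tested. None of the 9 other PRC2 subunits was called by edgeR, DESeq2 or limma, and 0 had an unadjusted edgeR p under 0.05. SUZ12 and EED, which hold EZH2 in the complex, were at 0.42 and -0.051. Of 12 COMPASS subunits, 1 was called lower. It was WDR5, a scaffold of the complexes that hold SETD1B. For WDR5 the log2 fold change was -1.46 ± 0.29 (SE, n = 3 per group, edgeR quasi-likelihood test, Benjamini-Hochberg adjusted p = 0.00558). Among 18 other lysine methyltransferases and CARM1, 2 were called higher and 5 lower. The largest changes were EHMT2 at -1.96 and EHMT1 at -1.63, both H3K9 methyltransferases, and CARM1, an arginine methyltransferase, at -1.66.

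Among 26 corepressor subunits, which carry HDAC1 and HDAC2 to chromatin, 2 were called higher and 6 lower. The largest changes were TBL1X at -2.61, MTA1 at -2.14 and MTA3 at -1.95. The 7 other JmjC genes had 2 called lower, RIOX2 at -1.38 and HR, which had 37 to 93 counts in control and 0 to 5 in CYT libraries. The 10 acetyltransferases had 1 called lower (KAT5, -1.41), while EP300 and CREBBP were at 0.25 and 0.22. Of 25 other bromodomain genes tested, 1 was called higher and 3 lower, led by SP100 at -1.68, ZMYND8 at -1.57 and SP140L at -1.33. The 7 cofactors of DNA methylation had 1 called higher (MBD4, a glycosylase that repairs mismatches at methylated CpG sites, 1.67), and UHRF1, which recruits DNMT1, was at 0.27. The 6 genes of the methyl donor cycle had 1 called lower (MAT2A, which makes S-adenosylmethionine, -1.78).

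The scale of the values bears on the called members. On log2(FPKM + 1), where folds of low genes are understated, limma called KDM5B, KDM6B, SETD1B and PRMT7 and none of the other 10. On log2(FPKM + 0.1) it called 13 of the 14, all but HDAC4. For KDM4D the log2 fold change on the log2(FPKM + 1) scale was 0.92, and for KDM8 it was -0.46. A filter at a mean of 5 CPM left KDM8, DNMT3B and SIRT4 untested.

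**Figure D4:**
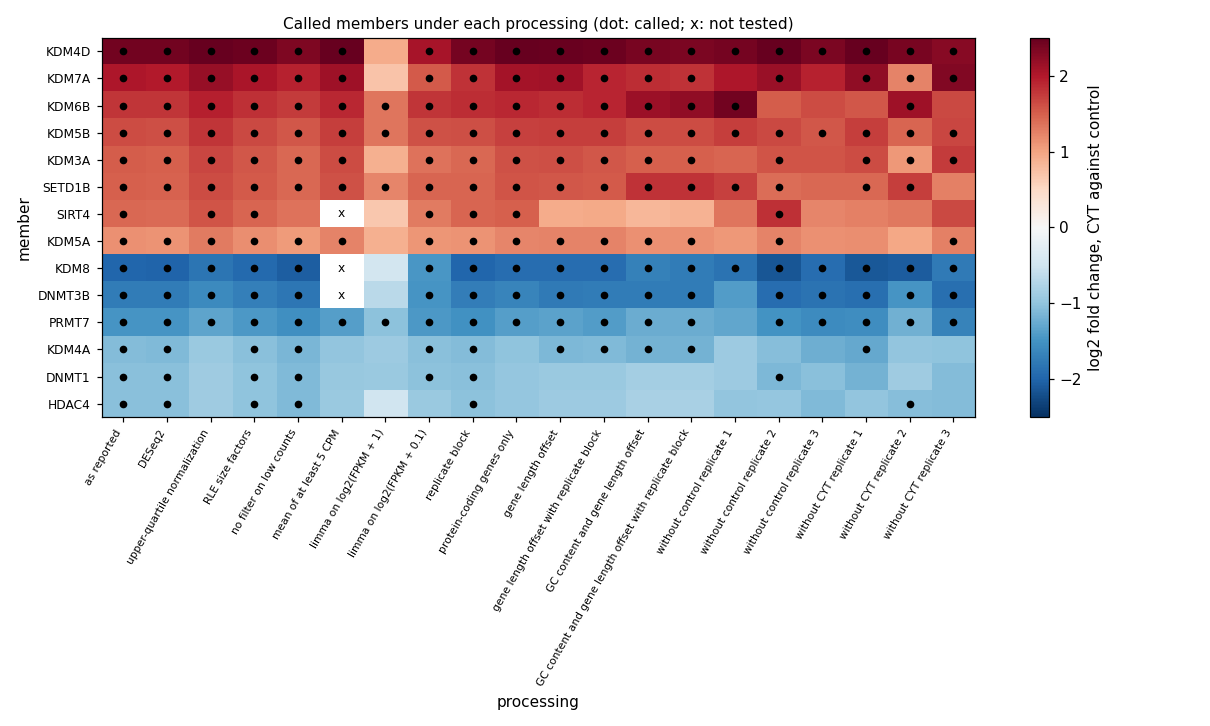
Log2 fold change of CYT against control (colour) of the 14 called members (rows) as reported and in the 19 alternative analyses (columns), with a dot where the member was called and an x where it was not tested. KDM5B was called in every column, and KDM4A, DNMT1, HDAC4 and SIRT4 have the fewest dots.

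Markers of the line were checked. VIM, CD44 and EGFR were expressed, but VIM and EGFR were called lower after CYT, with log2 fold changes of -1.30 and -2.65 and edgeR adjusted p-values of 0.00535 and 0.00186. The 3 summed to 2591, 2689 and 3001 CPM in control and to 1135, 1244 and 1054 CPM in CYT libraries. CD44 was at -0.19 and not called. Of the receptors, ESR1 and PGR had low counts, at most 4 and 3 in any library. ERBB2 did not, at 16.8 to 82.3 CPM and up to 1327 counts. The summed level of 7 luminal epithelial markers was 1158, 673 and 867 CPM in control and 517, 211 and 523 CPM in CYT replicates 1, 2 and 3. KRT19 was the one called, from a mean of 287 ± 114 (SD, n = 3) to 26.3 ± 14.4 (SD, n = 3) CPM (log2 fold change -3.45, edgeR adjusted p = 0.00187). KRT8, the most abundant, was at -0.41, KRT18 at -1.02, GATA3 at -0.73 and FOXA1 at 0.42, and EPCAM had at most 12 counts. The 5 fibroblast markers summed to 19.8, 12.1 and 14.2 CPM in control and to 5.01, 4.56 and 3.42 CPM in CYT libraries, led by COL1A1, which was called lower (log2 fold change -2.16, edgeR adjusted p = 0.00264), with DCN at 0. The 3 leukocyte markers summed to 0.620, 0.213 and 1.37 CPM in control and to 4.09, 4.34 and 4.05 CPM in CYT libraries, led by CD14, which was called higher (log2 fold change 2.43, edgeR adjusted p = 0.0157), with CD3E at 0. Several of these levels moved with the treatment, and their part in the members' values was not tested. In these bulk libraries, fewer cells of a kind and less RNA per cell cannot be told apart.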

How the data were processed

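RNA from 3 control and 3 CYT-treated samples of MDA-MB-231-DR cells was analysed. The authors aligned clean reads with Hisat2 and deposited raw counts per gene, with hg38 named in the submitters' processing notes. The counting program, its use of strand and the annotation are not given in the sources used here, so overlapping and antisense genes are uncertain. The authors also deposited FPKM values, which their methods credit to Stringtie and which entered the limma alternatives here. Over 10160 genes that had 50 or more counts in each library, count and FPKM implied the same gene length within 0.00209%.

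Counts were tested with edgeR 4.0.16 in R 4.3.3 (filterByExpr with a minimum count of 10, TMM, quasi-likelihood test, Benjamini-Hochberg adjustment over 15572 genes). The SE is the absolute log2 fold change over the square root of F. GC content came from the longest GENCODE transcript and exon overlaps from the same annotation. Replicates of a group differed by a chi-square of at least 25.0 per gene. Full values were given for EZH2, HDAC1, DNMT1 and the called members, up to 12 per direction, and for related lists up to 3 called genes and defining subunits. BRD7 values by library, the printed promoter windows and the paralogue ratios were chosen after values were seen. The members and lists were chosen with earlier results of these data known. The edgeR fits were also run on simulated counts with planted changes. That simulation held no GC trend and no pairing, so it cannot show how the fits handle these.

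Deviations from the group mean were correlated between libraries of the same number at 0.188 (replicate 1), 0.458 (replicate 2) and 0.124 (replicate 3), which was taken as pairing. The pairing rests on the label numbers and this check. The rank correlation with GC content of a library's deviation from the mean of all 6, over the genes tested, was -0.261 in control replicate 2 and -0.548 in CYT replicate 2, against 0.183 to 0.333 in the other 4, so the correlation of 0.458 comes with a GC pattern that this pair shares. Control replicate 1 with CYT replicate 3 (0.303) and control replicate 3 with CYT replicate 1 (0.201) correlated more than pairs 1 and 3. Alternatives were DESeq2 1.42.0, upper-quartile and RLE scaling, other filters, limma 3.58.1 on FPKM, a replicate block, a gene length term, protein-coding genes alone, no fold criterion and leaving out each library. Terms for GC content and length were added after the data were seen.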

Additional observations from a re-analysis of the deposited data

How the results depend on the processing

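The counts of called genes depended on the scale and on the libraries. With limma on log2(FPKM + 1), 3 members were called higher and 1 lower, as were 2375 of all genes and 15 related genes. With limma on log2(FPKM + 0.1) these were 8 and 5, 4108 and 23, near the reported 8 and 6, 4274 and 25, so the loss goes with the pseudocount, which shrinks the folds of low genes. Upper-quartile normalization called 3 members and 1531 of all genes lower, and protein-coding genes alone 3 and 1514. A filter at a mean of 5 CPM called 1 member and 1318 genes lower, with 2710 calls in all from fewer genes tested. Leaving out each library gave 2 to 7 members higher, 1 to 6 lower, 2731 to 4740 of all genes and 13 to 32 related genes, with fewer samples in each fit. The lowest counts came without control replicate 1 or 3. Upper-quartile normalization moved the median over all genes from 0.0064 to 0.16 (log2). Members called higher rose to 10, and all genes called higher rose from 2373 to 2756. With the replicate block, 8 members were called higher, 7 lower and 5011 genes in all, so the pairing ended no member's call and added that of SETD5.

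No called member or related gene changed sign in any of the 19 alternatives, while 15 uncalled members, all between -0.42 and 0.34 as reported, did so under at least 1. BRD2 was at -0.00068 with no filter, -0.18 to 0.31 leaving out 1 library. BRD3 was at -0.050 with no filter, -0.060 to 0.099 leaving out 1 library. DNMT3A was at -0.67 to 0.034 leaving out 1 library. HDAC7 was at -0.55 to 0.058 leaving out 1 library. HDAC9 was at -0.997 to 0.064 leaving out 1 library. KDM1B was at 0.044 with upper-quartile normalization, -0.42 to 0.069 leaving out 1 library. KDM2B was at 0.084 with the GC and length term, 0.073 with the GC and length term and block. KMT2A was at -0.0077 with no filter, -0.29 to 0.34 leaving out 1 library. KMT2B was at 0.12 with upper-quartile normalization, 0.0083 with RLE scaling, 0.070 with the 5 CPM filter, 0.058 with protein-coding genes alone, 0.065 with a length term, 0.31 with the GC and length term, 0.31 with the GC and length term and block, -0.25 to 0.34 leaving out 1 library. KMT2E was at -0.026 with no filter, -0.20 to 0.27 leaving out 1 library. PRMT2 was at 0.080 with upper-quartile normalization, 0.028 with the 5 CPM filter, 0.0060 with protein-coding genes alone, 0.029 with a length term, 0.054 with a length term and block, -0.21 to 0.097 leaving out 1 library. PRMT3 was at -0.015 with the GC and length term and block, -0.40 to 0.62 leaving out 1 library. PRMT9 was at -0.83 to 0.11 leaving out 1 library. SETD3 was at -0.22 to 0.25 leaving out 1 library. TET3 was at -0.095 to 0.19 leaving out 1 library. The causes were not tested. The terms for GC content were chosen after the data were seen. Low counts limit SIRT4, KDM8, DNMT3B and KDM4D most.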

Other observations

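Ratios within a library set related members against each other without the scaling between libraries. They were chosen after the values were seen and are descriptions, and gene length and GC content differ between the genes of a pair. The 8 pairs computed are all given, as mean log2 ratios in CPM ± SD (n = 3). KDM4D to KDM4A was at -4.75 ± 0.32 in control and at -1.26 ± 0.59 in CYT libraries. KDM3A to KDM3B was at -1.92 ± 0.38 in control and at 0.17 ± 0.30 in CYT libraries. KDM5B to KDM5C was at -1.07 ± 0.25 in control and at 0.91 ± 0.78 in CYT libraries. KDM6B to KDM6A was at 0.64 ± 1.06 in control and at 1.71 ± 1.25 in CYT libraries. SETD1B to SETD1A was at -0.89 ± 0.28 in control and at 1.22 ± 0.43 in CYT libraries. HDAC2 to HDAC1 was at -1.41 ± 0.18 in control and at -0.29 ± 0.46 in CYT libraries. DNMT3A to DNMT3B was at 1.29 ± 0.25 in control and at 2.71 ± 0.80 in CYT libraries. PRMT1 to PRMT7 was at 3.65 ± 0.25 in control and at 5.47 ± 0.29 in CYT libraries. Since most pairs set a called member against a paralogue that was uncalled or called the other way, differences between the groups follow largely from the choice. In KDM6B to KDM6A the groups overlapped.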
